A study of Mus musculus with 26 samples.

Results

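The retinal pigment epithelium (RPE) cells described here are the cells that the authors placed in cluster 1 of their scRNAseq of mouse RPE/choroid. They number 781 of the 7565 cells with deposited counts. The B6129PF1/J library held 407 of them among 3637 cells, or 11.2% (95% exact binomial interval 10.2 to 12.3%), and the C57BL/6J library held 374 among 3928 cells, or 9.52% (8.62 to 10.5%). The other 12 clusters of each library serve as the comparison.

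The RPE is a pigmented, postmitotic epithelial sheet between the photoreceptors and the choroidal capillaries. It regenerates the 11-cis-retinal chromophore of the visual pigments in the visual cycle, engulfs shed photoreceptor outer segments, moves ions, lactate, glucose and retinol between retina and blood, and secretes factors toward both sides. Its identity is set by transcription factors such as OTX2 and MITF, and its melanosomes absorb stray light.

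The scRNAseq libraries were made from 90-d-old wild-type mice of the B6129PF1/J and C57BL/6J strains, with 1 library per strain and with 1 eye of a male and 1 eye of a female pooled in each. Digested cells were sorted as Hoechst+ nucleated, TO-PRO-3− events, and the study collected dimly stained events together with brightly stained ones so that pigmented cells were kept. Bulk RNAseq of RPE/choroid was made from 6-mo-old mice on a C57BL/6J background, 3 *Ihh*+/+ and 3 *Ihh*iΔEC/iΔEC, all carrying the *Cdh5*-PAC-CreERT2 transgene and all given tamoxifen 12 wk before collection, so that floxed *Ihh* (Indian hedgehog) was deleted in ECs, not in RPE. Choroidal GLI1+ stromal cells of *Gli1*GFP/+ mice were cultured for 24 h with DMSO or with 100 nM SAG, a Smoothened agonist, in 3 replicates each. The labels give these mice as SWR/J, and the methods state that the line had been outcrossed to BALB/c. The sorted ECs of heart, liver, lung and neural retina came from 1-mo-old B6129PF1/J mice and enter only through a gene list of the authors.

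RPE cells held 2999156 UMIs in the B6129PF1/J library and 1748060 UMIs in the C57BL/6J library. The median RPE cell had 5263 UMIs (1960 to 34370) in the former and 3406.5 UMIs (1718 to 30304) in the latter. After every cell was thinned to 1700 UMIs, the median RPE cell showed 756 and 760 genes, against medians of 726 to 1021 genes in the other clusters. The 10 most abundant genes took 32.6% and 30.9% of RPE UMIs, whereas in the other clusters they took 9.50 to 20.1%. The libraries shared 22 cell barcodes, of which none was in cluster 1 of both. With 1 library per strain no test between strains is possible, and because the clusters were made from these genes, RPE is compared with the other clusters as a description with no test. Every interval given here for UMIs covers counting error only. Throughout, paired values are given for B6129PF1/J first and C57BL/6J second, and levels are UMIs per 10,000 UMIs of the cluster.

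The promoters of marker genes of these cells are shown because 3 of the 5 hold sequence motifs that OTX2 or MITF can recognize. Each runs 5′ to 3′ on the gene's strand from 250 bases before to 50 bases after the RefSeq start in GRCm38.p6. Capitals mark TAATCC, the core recognized by OTX2 and CRX, and CATGTG, an E-box of the kind bound by MITF, on either strand. The *Rpe65* window is chr3:159598931-159599230 on the plus strand, the *Rgr* window is chr14:37048965-37049264 on the minus strand, and the *Rlbp1* window is chr7:79386978-79387277 on the minus strand.
Rpe65: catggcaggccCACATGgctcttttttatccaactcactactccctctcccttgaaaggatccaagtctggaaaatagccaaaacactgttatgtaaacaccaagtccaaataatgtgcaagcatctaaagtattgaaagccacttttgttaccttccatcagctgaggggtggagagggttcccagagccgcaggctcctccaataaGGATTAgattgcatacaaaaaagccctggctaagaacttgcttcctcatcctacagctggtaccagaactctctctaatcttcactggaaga
Rgr: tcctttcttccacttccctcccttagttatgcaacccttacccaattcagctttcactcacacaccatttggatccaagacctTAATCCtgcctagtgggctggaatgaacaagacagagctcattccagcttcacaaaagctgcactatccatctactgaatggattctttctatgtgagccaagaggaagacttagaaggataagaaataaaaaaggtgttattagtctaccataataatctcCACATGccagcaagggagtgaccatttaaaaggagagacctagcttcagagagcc
Rlbp1: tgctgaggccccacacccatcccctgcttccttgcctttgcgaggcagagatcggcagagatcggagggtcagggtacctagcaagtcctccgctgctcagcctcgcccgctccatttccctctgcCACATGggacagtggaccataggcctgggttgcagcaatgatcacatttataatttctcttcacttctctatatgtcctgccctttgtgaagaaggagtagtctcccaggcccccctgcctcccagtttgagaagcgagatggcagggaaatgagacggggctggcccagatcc
The windows of *Rpe65* and *Rgr* held both motifs, that of *Rlbp1* held CATGTG alone, and those of *Rdh5* and *Slc16a8* held neither. Of all 32851 windows of this length, 7.06% held TAATCC and 14.2% held CATGTG. Binding of OTX2 or MITF at these matches was not tested. The 5 genes are protein coding in the GENCODE annotation of GRCm38, with *Rdh5* on chromosome 10 from 128913593 to 128922888 and *Slc16a8* on chromosome 15 from 79251014 to 79254761.

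The marker genes matched the label of the cluster in both libraries. *Rpe65*, the retinoid isomerohydrolase of the visual cycle, had 57.9 UMIs per 10,000 (57.1 to 58.8) and 59.9 (58.7 to 61.0). The highest level of *Rpe65* in any other cluster was 0.601 and 1.09. *Rgr*, an opsin that isomerizes all-trans-retinal in light, had 157 (156 to 158) and 138 (136 to 139.7). *Rdh5*, the 11-cis-retinol dehydrogenase, had 77.8 (76.8 to 78.8) and 76.2 (74.9 to 77.5), and *Rlbp1*, the retinal carrier CRALBP, had 40.6 (39.9 to 41.4) and 36.8 (35.9 to 37.7). *Slc16a8*, the basolateral lactate transporter MCT3, had 29.9 (29.2 to 30.5) and 26.2 (25.5 to 27.0). Each of the 5 markers was found in at least 98.5% of RPE cells of each library, so that the markers describe nearly every cell of the cluster rather than a part of it.

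**Figure D1:**
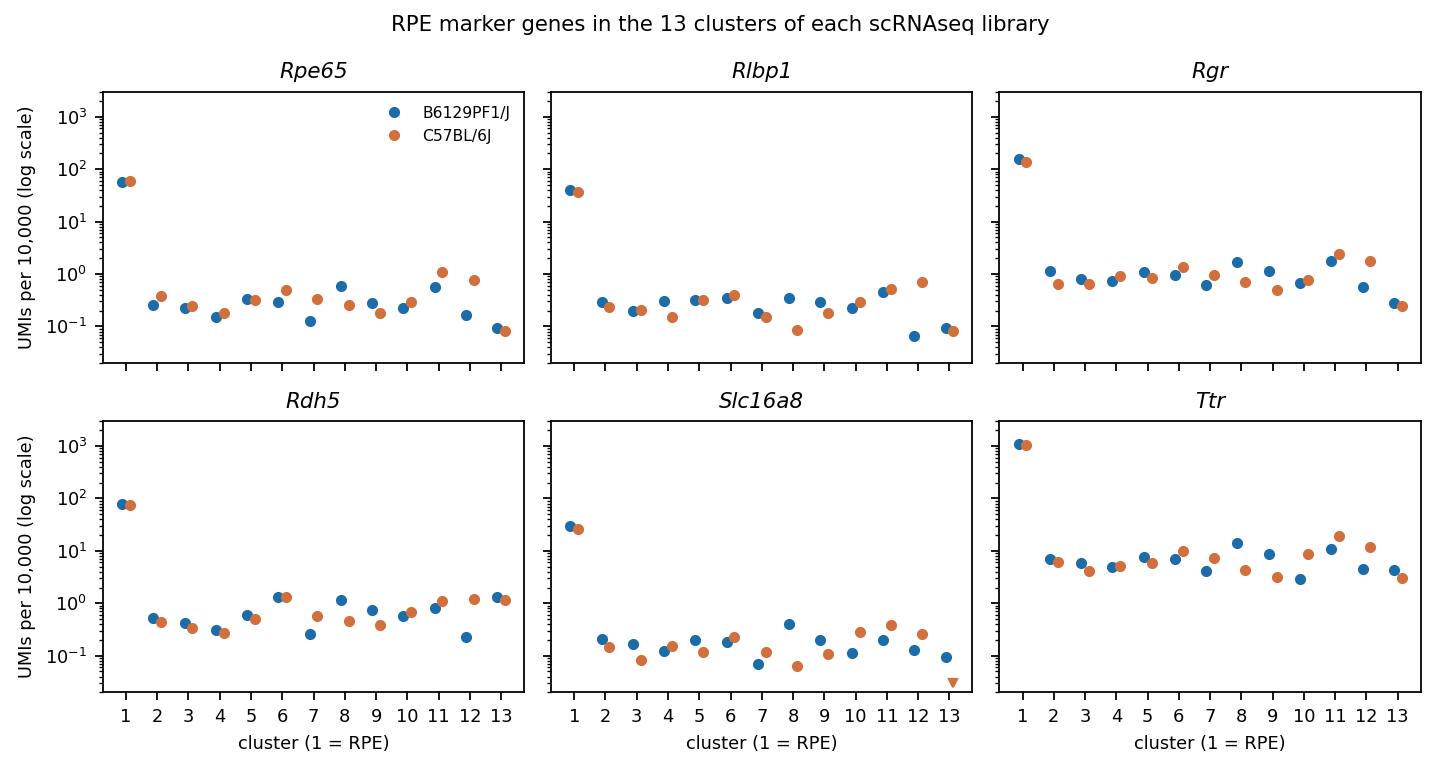
Levels of the 5 RPE markers and *Ttr* in UMIs per 10,000 on a log axis, in each of the 13 clusters of the B6129PF1/J and C57BL/6J libraries; a triangle marks a cluster with 0 UMIs. Cluster 1 stands above every other cluster for each gene, and the other clusters share a low level such as 0.0931 to 0.601 for *Rpe65* in B6129PF1/J.

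Transthyretin transcripts filled a large part of the RPE transcriptome. *Ttr*, which encodes the carrier of retinol-binding protein and thyroid hormone, had 1115 UMIs per 10,000 (1111 to 1119) and 1046 (1041 to 1051), that is 11.2% and 10.5% of all RPE UMIs. It was followed by *Ptgds*, the lipocalin-type prostaglandin D2 synthase, with 734 (731 to 737) and 637 (633 to 641), and by *Cst3*, the protease inhibitor cystatin C, with 382 (379 to 384) and 366 (363 to 369). All were secreted-protein genes. In RPE the summed level of 24 genes for secreted factors reached 1329 and 1252, while it lay between 33.0 and 318 in the other clusters of the 2 libraries.

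The visual cycle was the functional group in which RPE stood furthest from the other clusters. Of its 13 listed genes, 11 were highest in cluster 1 in both libraries, against a background of 6.33% of all 15299 genes with UMIs. The list includes the markers *Rpe65*, *Rlbp1*, *Rgr* and *Rdh5*, and the clusters were made from these genes. The high share therefore describes the cluster and is not separate evidence about it. The enzyme *Lrat*, which esterifies retinol for storage, had 8.69 (8.36 to 9.03) and 9.48 (9.03 to 9.95). *Rdh10*, a further retinol dehydrogenase, had 16.7 and 16.5, and *Stra6*, the receptor that takes up retinol from its plasma carrier, had 6.48 and 7.18. *Rrh*, the opsin peropsin of RPE microvilli, had 7.78 (7.46 to 8.10) and 5.61 (5.26 to 5.97), a ratio between libraries of 1.39 (1.29 to 1.496). The exceptions were *Dhrs3*, a retinaldehyde reductase with 1.28 and 1.29 in RPE against 5.74 and 7.81 in melanocyte cluster 10, and *Rbp4*, the plasma retinol carrier, with 0.0634 and 0.0686 in RPE against 1.43 and 0.303 in stromal cluster 5.

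Of 27 measured transport genes, 12 were highest in cluster 1 in both libraries. *Bsg*, the chaperone that brings lactate transporters to the membrane, had 69.2 (68.2 to 70.1) and 68.2 (67.0 to 69.4), and the apical lactate transporter gene *Slc16a1* had 4.89 and 5.57. *Slc16a3*, the lactate transporter of glycolytic cells, had 0 UMIs in RPE of both libraries. The carbonic anhydrase genes were split in the same way, since *Car14* had 15.5 and 17.9 and *Car12* 2.69 and 2.28, whereas *Car4* had 0 UMIs and *Car2* 0.00333 and 0.00572. *Atp1b1*, a subunit of the sodium pump, had 8.95 and 9.18 in RPE and at most 0.360 and 0.771 elsewhere. *Kcnj13*, the inward rectifier channel of the RPE apical membrane, was higher in melanocyte cluster 10, with 22.5 and 17.6 against 11.3 and 13.9. *Slc2a1*, the glucose transporter GLUT1, had 8.49 and 8.53 in RPE and was highest in EC cluster 4, with 15.8 and 13.4. *Best1*, an RPE anion channel gene mutated in vitelliform macular dystrophy, had 3 UMIs in B6129PF1/J RPE and none in C57BL/6J RPE, with an interval of 0 to 0.0211 per 10,000.

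Among the other secreted factors, *Trf*, which encodes the iron carrier transferrin, had 141 (139.9 to 143) and 172 (170 to 174), and *Enpp2*, the lysophospholipase autotaxin, had 28.5 (27.9 to 29.1) and 37.3 (36.4 to 38.3). *Timp3*, an inhibitor of matrix metalloproteinases deposited in the basement membrane under the RPE, had 24.1 and 23.6 in RPE but 59.2 and 49.8 in EC cluster 2. *Vegfa*, the growth factor that maintains choroidal capillaries, had only 0.730 (0.637 to 0.834) and 0.681 (0.564 to 0.815) in RPE, and this was nevertheless its highest level in both libraries. *Serpinf1*, which encodes the antiangiogenic factor PEDF, had 0.0500 (0.0280 to 0.0825) and 0.103 (0.0610 to 0.163) in RPE against 17.75 and 18.04 in stromal cluster 7. Of the 24 factors, 8 were highest in cluster 1 in both libraries.

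Epithelial structure was carried by few abundant genes. The keratin genes *Krt18* and *Krt8* had 14.1 (13.7 to 14.6) and 16.1 (15.5 to 16.7), and 3.95 and 3.90, and the integrin gene *Itgb8* had 7.87 and 11.04. *Ezr*, the microvillar linker ezrin, had 4.89 and 5.95, and its partner *Slc9a3r1* 4.53 and 5.6005. Of 24 junction and cytoskeleton genes, 12 were highest in cluster 1 in both libraries, most of them at low levels. *Cldn1* had 0.960 and 1.28, *Cldn2* 0.510 and 0.320 and the cadherin gene *Cdh3* 0.610 and 0.864. *Cldn19*, a claudin of the RPE tight junction, had 0 UMIs in RPE of both libraries and 9.77 and 8.68 in Schwann cluster 13, and the epithelial genes *Epcam* and *Cdh1* had 0 and at most 0.00333.

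Transcription factor transcripts were scarce. *Otx2* led with 3.71 (3.50 to 3.94) and 3.03 (2.77 to 3.30), and its highest level elsewhere was 0.0791 and 0.0495. *Lhx2*, needed for optic vesicle patterning, had 0.677 and 0.721 and was also highest in RPE. *Mitf*, the master factor of pigment cells, had 0.687 (0.596 to 0.787) and 0.509 (0.409 to 0.627) in RPE against 3.72 and 5.20 in melanocyte cluster 10. *Sox9* had 1.58 and 1.55 and *Six3* 1.33 and 1.34, both below stromal or EC clusters. Of the 15 measured factors, 4 were highest in cluster 1 in both libraries.

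The pigment genes separated RPE from choroidal melanocytes, the other pigmented cells of the tissue. None of 15 melanin and melanosome genes was highest in RPE in both libraries, and the list summed to 28.3 and 26.8 in RPE against 668 and 656 in cluster 10. *Dct*, the dopachrome tautomerase of eumelanin synthesis, had 13.4 (13.04 to 13.9) and 12.3 (11.8 to 12.9) in RPE and 246 and 217 in cluster 10. *Tyrp1*, a further melanogenic enzyme gene, had 3.45 and 2.12 in RPE and 96.2 and 98.5 in cluster 10. The melanosome fibril gene *Pmel* had 0.874 and 0.692 in RPE, where 13.02% and 9.09% of cells had a UMI. Cluster 10 was small, with 16 and 26 cells. It was nevertheless the cluster nearest to RPE in overall expression, with a Pearson r of 0.677 and 0.689 over the log2 levels of 3799 and 3834 genes, and the next cluster reached 0.564 and 0.595. These correlations are across genes, which are not independent replicates, and share library and depth.

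Of 16 genes of outer segment phagocytosis, 1 was highest in cluster 1 in both libraries, a share near the 6.33% of all genes. It was *Itgav*, which encodes the αv subunit of the integrin that binds outer segments, with 2.59 (2.41 to 2.78) and 3.45 (3.18 to 3.74). Its partner *Itgb5* had 0.497 and 0.543, below stromal cluster 6 with 2.08 and 1.97. *Mertk*, the receptor tyrosine kinase that triggers engulfment, had 0.377 (0.311 to 0.453) and 0.366 (0.282 to 0.468), and was higher in cluster 13 of B6129PF1/J with 0.558 and in cluster 2 of C57BL/6J with 0.405. Lysosomal genes, which digest the engulfed discs, summed to 123 and 129, below melanocyte cluster 10 of B6129PF1/J with 141 and hematopoietic cluster 11 of C57BL/6J with 156. Of 20 lysosomal genes, 2 were highest in cluster 1 in both libraries, a share close to the 6.33% of all genes. They were *Psap*, the saposin precursor, with 31.5 and 38.2, and *Ctsd*, the main lysosomal aspartyl protease, with 34.2 and 29.7.

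Of 13 measured complement genes, 1 was highest in cluster 1 in both libraries, again near the 6.33% of all genes. It was *Clu*, which encodes clusterin, with 85.0 (84.0 to 86.1) and 88.2 (86.8 to 89.6). *C3*, the central complement component, had 0 UMIs in RPE of both libraries. In the iron and antioxidant list 8 of 23 genes were highest in RPE, led by the metallothionein gene *Mt1* with 159 and 200.02 and by *Gpx4*, the lipid hydroperoxidase, with 61.4 and 64.4. In lipid handling, *Abca4*, a retinaldehyde flippase best known from photoreceptors, had 1.42 (1.29 to 1.56) and 1.36 (1.19 to 1.54) in RPE and at most 0.0306 and 0.0495 elsewhere. *Apoe* had 116 and 157.

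Markers of other cell types were low in RPE. The summed level was 0.583 and 0.715 for 6 endothelial genes, 0.527 and 1.25 for 5 stromal genes, 1.16 and 1.06 for 6 hematopoietic genes and 0.674 and 0.824 for 6 Schwann genes. The 5 mural genes summed to 3.35 and 5.29. In each case another cluster reached between 134 and 502. Photoreceptor genes summed to 2.98 and 3.17 over 12 measured genes, of which *Rom1*, a disc rim protein gene, made up 2.79 and 3.03. Of the 7 measured Müller glia genes none was highest in RPE, and they summed to 11.3 and 10.9 against 46.5 and 39.8 in EC cluster 4. The 2 measured erythrocyte genes had 0 and 0.0286. The melanocyte list summed to 737 and 640 in RPE, above the 530 and 452 of cluster 10, because it includes *Ptgds*. The 10 cell cycle genes summed to 0.604 and 0.601 in RPE, with *Mki67* at 0.00333 and 0.

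A gene was called RPE-enriched when it had at least 1 UMI per 10,000 in cluster 1 and at least 5 times the level of every other cluster, in both libraries, with any other cluster under 3 UMIs set to 3 UMIs. Because the clusters were made from these genes, the call is a description and not a test. Of 1129 genes at the minimum in both libraries, 61 were called, or 5.4%. Together they held 22.1% and 21.7% of RPE UMIs. In 38 of the 61 the highest other cluster stood at that floor in at least 1 library, so that the floor sets the size of their ratio. With the floor applied, small melanocyte cluster 10 was the highest other cluster in at least 1 library for 45 of the 61 genes. It held the fewest UMIs of all clusters (88799 and 103776), so the floor gives it the highest level. The count of 45 therefore does not show melanocyte expression. For *Clic6*, the highest other clusters before the floor were 8 and 7.

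**Figure D2:**
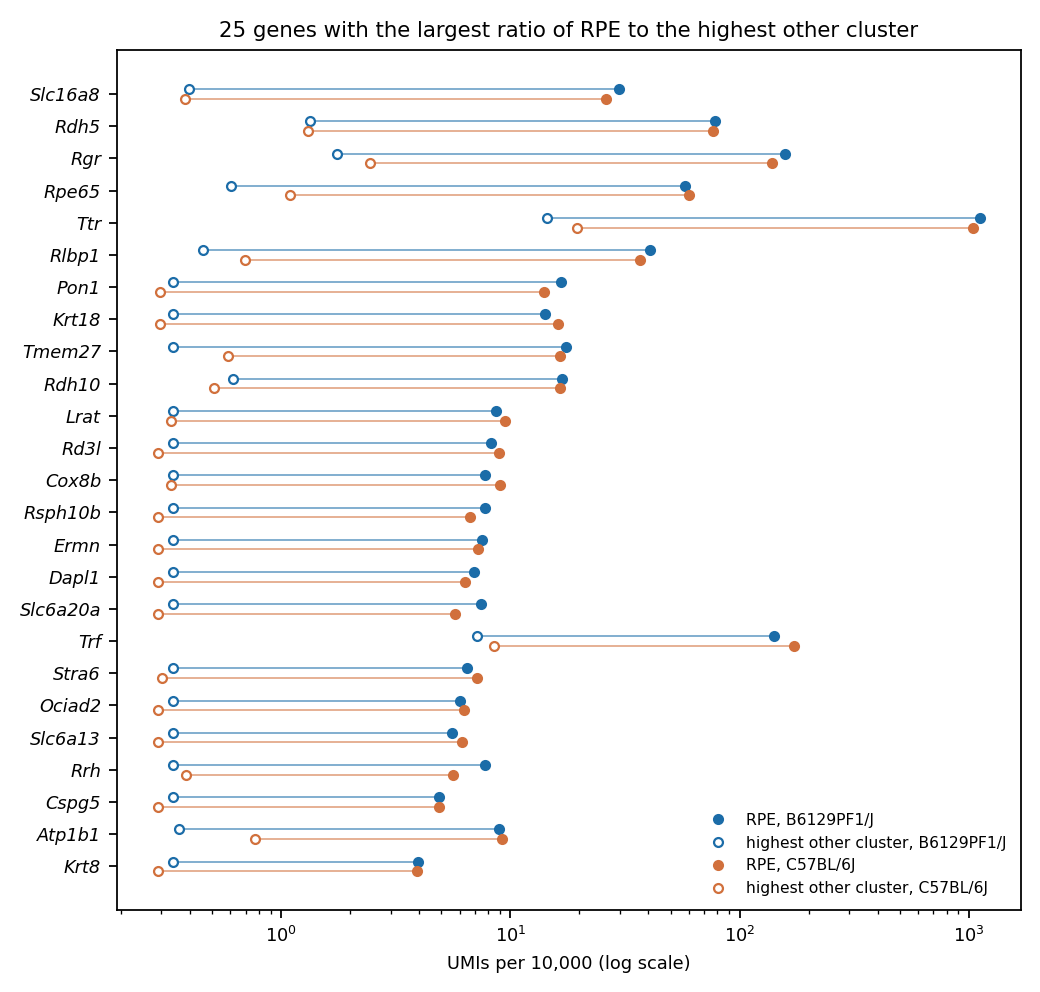
Level in RPE (filled points) and in the highest other cluster (open points), in UMIs per 10,000 on a log axis, for the 25 RPE-enriched genes with the largest ratio, in each library. Open points of many genes stand at the 3-UMI floor, and *Slc16a8*, *Rdh5*, *Rgr*, *Rpe65*, *Ttr* and *Rlbp1* have ratios of 52.8 or more in both libraries.

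The ratio of RPE to the highest other cluster, taken as the lower of both libraries, was 69.1 for *Slc16a8*, 58.4 for *Rdh5*, 56.5 for *Rgr*, 55.0 for *Rpe65*, 53.5 for *Ttr* and 52.8 for *Rlbp1*. Below these genes of known RPE function stood *Pon1*, which encodes a paraoxonase, with 47.1, and *Tmem27*, which encodes the amino acid transporter chaperone collectrin, with 28.3. Counted against the floor, *Krt18* had a ratio of 41.8. Also against the floor stood the amino acid transporter genes *Slc6a20a* with 19.8 and *Slc6a13* with 16.4, the melanogenesis-associated gene *Dapl1* with 20.5, and *Cox8b* with 22.9, a cytochrome oxidase subunit gene otherwise typical of heart, muscle and brown fat. *Rd3l*, *Rsph10b*, *Ermn*, *Ociad2* and *Cspg5* had 24.4, 22.8, 22.2, 17.9 and 14.5, each likewise against the floor level. *Fbxw4* with 5.05 and *Slc1a1* with 5.01 lay just inside the threshold, and *Wfdc2* with 4.85 and *Ezr* with 4.78 just outside it. Of the 61 genes, 27 belonged to a functional list.

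Across the 26 levels of 13 clusters in 2 libraries, the genes whose log2 level followed that of *Rpe65* most closely were *Rgr* (Pearson r 0.990), *Ttr* (0.988), *Rlbp1* (0.983), *Slc16a8* (0.982) and *Slc6a20a* (0.980), and then *Rd3l*, *Ermn*, *Mogat1*, *Osbp2* and *Slc6a13* with r between 0.977 and 0.971. The points share libraries, and this is a description with no test. Among the 53 promoter windows that matched 41 of the 61 enriched genes, TAATCC lay in 6 windows (11.3%, against 7.06% of all 32851 windows of this length), namely those of *Rpe65*, *Rgr*, *Otx2*, *Pon1*, *Slc6a13* and *Sult1c1*. CATGTG lay in 7 windows (13.2%, against 14.2%) and CACGTG in 2 windows (3.77%, against 7.15%). A match of letters is not a binding site.

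RPE cells differed among themselves most of all in *Malat1*, an abundant long noncoding RNA retained in the nucleus. At equal depth of 1700 UMIs per cell, 43.5% (38.6 to 48.5%) of B6129PF1/J RPE cells and 56.15% (51.0 to 61.2%) of C57BL/6J RPE cells had no *Malat1* UMI. In the other clusters this share lay between 0 and 1.62% in B6129PF1/J and between 0 and 0.625% in C57BL/6J, and among the pigmented melanocytes of cluster 10 it was 0 of 16 cells (upper bound 20.6%) and 0 of 26 cells (upper bound 13.2%). The median RPE cell had 1 and 0 *Malat1* UMIs, whereas the median cell of every other cluster had between 46.5 and 178. With all UMIs of a cell counted, 22.6% (18.6 to 27.0%) and 36.9% (32.0 to 42.0%) of RPE cells had none. RPE cells were thus unlike all other clusters in this respect in both libraries. The sort kept Hoechst-dim and Hoechst-high events together, and per a supplementary figure legend of the study the dim events held debris along with mainly pigmented cells. The part of the gate in this pattern was not tested.

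*Xist*, the nuclear RNA that coats the inactive X chromosome of female cells, showed the same contrast. With all UMIs counted, *Xist* was found in 49 RPE cells, or 12.0% (9.04 to 15.6%), of the B6129PF1/J library and in 19, or 5.08% (3.09 to 7.82%), of the C57BL/6J library. In the other clusters it was found in 44.4 to 78.8% and in 23.9 to 78.8% of cells. The mRNAs of 4 Y-linked genes (*Ddx3y*, *Eif2s3y*, *Uty* and *Kdm5d*) did not share this deficit, since at least 1 of them was found in 28.3% (23.9 to 32.9%) and 23.8% (19.6 to 28.4%) of RPE cells, within the 8.75 to 31.7% and 5.63 to 27.6% of the other clusters. Both *Xist* and a Y-linked gene were found in 6 and 4 RPE cells. *Neat1*, a further nuclear RNA, had 0.493 and 0.246 UMIs per 10,000 in RPE and 1.29 to 14.1 and 1.56 to 16.4 elsewhere.

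The RPE cells were then described by their number of *Malat1* UMIs at equal depth. In B6129PF1/J, 177 cells had 0, 115 had 1 to 9 and 115 had 10 or more, and in C57BL/6J these numbers were 210, 109 and 55. *Xist* was found in 2.26%, 0% and 39.1% (30.2 to 48.7%) of these classes in B6129PF1/J and in 0.476%, 0% and 32.7% (20.7 to 46.7%) in C57BL/6J. The 0% of the middle class has an upper bound of 3.16% and 3.33%. It was therefore nearly confined in both libraries to the cells with 10 or more *Malat1* UMIs, with 4 and 1 *Xist*+ cells among those without *Malat1*. Y-linked genes were found in 19.2%, 20.9% and 49.6% of the classes in B6129PF1/J and in 18.6%, 21.1% and 49.1% in C57BL/6J. The classes differed in depth, with medians of 5043, 3254 and 10312 UMIs and of 3106, 3140 and 6069 UMIs, and at equal depth Y-linked genes were found in 5.08%, 8.70% and 17.4% and in 9.52%, 4.59% and 21.8%.

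**Figure D3:**
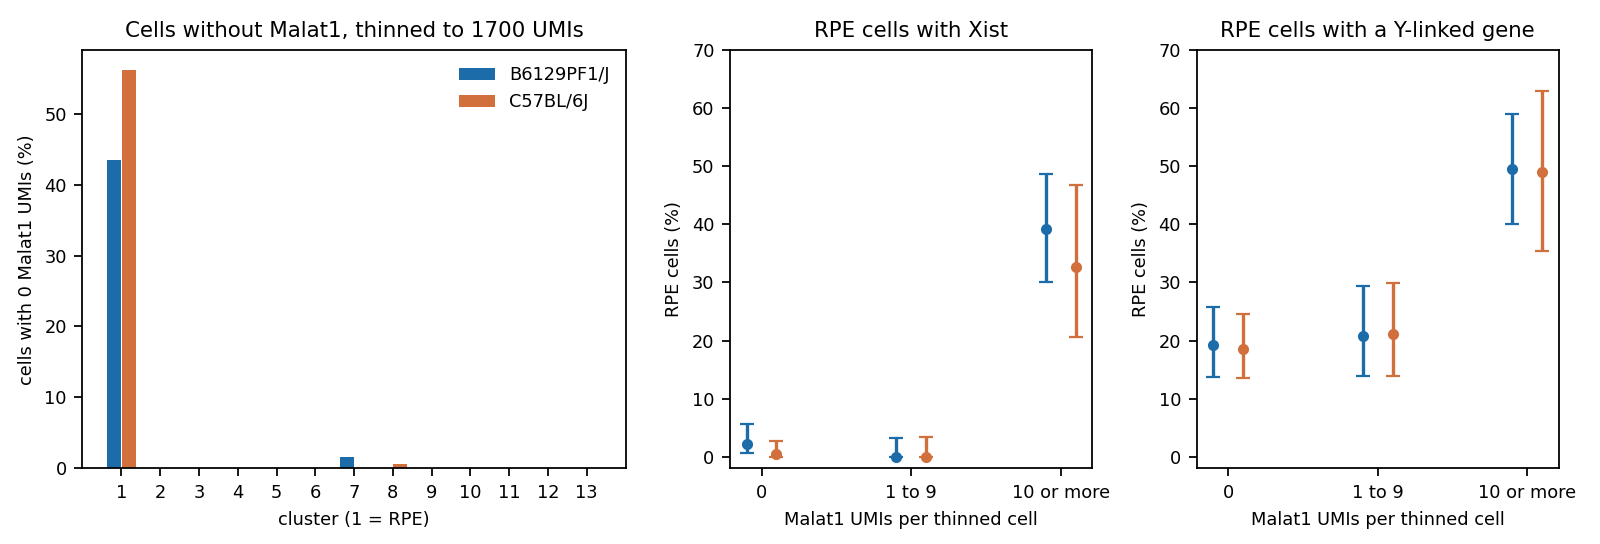
Left, percentage of cells without a *Malat1* UMI after thinning to 1700 UMIs, by cluster and library, with RPE at 43.5% and 56.15% and no other cluster above 1.62%. Middle and right, percentage of RPE cells with *Xist* or with a Y-linked gene by *Malat1* UMIs per thinned cell, where bars are 95% exact binomial intervals; *Xist* appears in 39.1% and 32.7% of the cells with 10 or more *Malat1* UMIs.

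The RPE program itself differed little between these classes. *Rpe65* had 58.8, 61.7 and 55.8 UMIs per 10,000 in the B6129PF1/J cells with 0, 1 to 9 and 10 or more *Malat1* UMIs, and 61.5, 59.8 and 57.1 in the C57BL/6J cells. Other transcripts differed severalfold. The immediate-early gene *Fos* had 0.464, 0.538 and 3.61 in B6129PF1/J and 0.662, 0.508 and 5.66 in C57BL/6J, and *Jun* had 0.265, 0.241 and 2.22 and 0.159, 0.212 and 2.09. *Ogt*, the O-GlcNAc transferrase gene on the X chromosome, had 0.161, 0.167 and 2.33 and 0.0858, 0.148 and 1.68. The mitochondrial transcript *mt-Co3* had 24.3, 31.3 and 82.4 and 29.8, 32.4 and 96.2. All 4 genes were higher in the cells with 10 or more *Malat1* UMIs in each library. Mitochondrial UMIs made up 1.14% and 1.21% of the median RPE cell, below the 1.79 to 6.24% of the other clusters, and 0.860%, 1.14% and 1.80% of the classes in B6129PF1/J. Because the classes were cut from a count, they are ranges and not cell types, and the cause of the difference was not tested.

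Immediate-early genes were also described over RPE as a whole. Of 19 immediate-early and stress genes, 1 was highest in RPE in both libraries, near the 6.33% of all genes, namely *Hsp90aa1*, a cytosolic chaperone gene, with 20.6 and 20.2. *Fos* had 1.95 (1.80 to 2.12) and 1.93 (1.73 to 2.15) in RPE against 97.2 and 112 in Schwann cluster 13, and *Junb* had 1.16 and 1.54 against 57.7 in cluster 5 of B6129PF1/J and 61.0 in cluster 8 of C57BL/6J. The list summed to 30.6 and 29.6 in RPE and to between 18.1 and 315 in the other clusters.

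Beyond *Malat1*, the spread of counts between RPE cells was described by the variance over the mean. At few UMIs per cell this ratio stays near that of sampling even where levels differ between cells. A low ratio therefore cannot show that a gene varies by sampling alone. The variance over the mean of UMIs per thinned cell had a median of 1.08 in each library over 944 genes with a mean of at least 0.2, and 47 genes reached 1.5 in both libraries. *Malat1* had 244 and 509, *Ttr* 16.9 and 17.0 and *Ptgds* 11.2 and 10.8. *Rpe65* had 2.39 and 2.20 and *Slc16a8* 1.48 and 1.44. *Cox8b*, at a mean of 1.48 and 1.53 UMIs per thinned cell, had a ratio of 7.38 and 5.21, 0 UMIs in 56.0% and 51.9% of thinned cells and up to 25 and 22 UMIs in the highest cell. *Abhd2*, an acylglycerol lipase gene, had 3.47 and 5.06 and 0 UMIs in 60.7% and 45.2% of cells. The other genes among the 15 most variable were *Trf*, *Mt1*, *Mt2*, *Cst3*, *Apoe* and the mitochondrial transcripts *mt-Atp6*, *mt-Co3*, *mt-Co1*, *mt-Cytb* and *mt-Nd1*. Across cells, the Spearman correlation was 0.43 and 0.42 for *Ttr* with *Ptgds*, 0.49 and 0.42 for *Malat1* with *Ogt* and 0.37 and 0.26 for *Dct* with *Cox8b*, values over 407 and 374 cells that share library and depth.

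RPE transcripts were also found at a low level in every other cluster. Pooled over the other clusters, *Ttr* stood at 0.654% and 0.621% of its RPE level, and 79.4% and 63.9% of non-RPE cells had at least 1 *Ttr* UMI. The 5 markers stood at 0.501 to 0.878% of their RPE level. The number of *Ttr* UMIs per *Rgr* UMI was 7.10 and 7.58 in RPE and had a median of 7.02 (6.15 to 8.50) and 6.80 (5.58 to 9.58) over the 10 other clusters with at least 10 *Rgr* UMIs. The RPE value thus lay within the range of the other clusters in each library. Whether these UMIs come from free RNA was not tested, and no level at this height is read here as expression.

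RPE of the 2 strains was then compared. The strain, the mice and the library cannot be told apart, so the ratios describe the libraries. Of 1317 genes with at least 1 UMI per 10,000 in either library, 12 (0.911%) were at least 2-fold higher in B6129PF1/J and 6 (0.456%) at least 2-fold lower. With median-of-ratios scaling the numbers were 15 and 4. The median log2 ratio was −0.05, and 95.5% of the genes lay within 1.5-fold. Among the 61 RPE-enriched genes the median was 0.02, 57 lay within 1.5-fold and 1, *Ins2*, was past 2-fold. *Abhd2*, with 4.92 and 9.70, was the enriched gene most tilted toward C57BL/6J, just short of 2-fold.

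**Figure D4:**
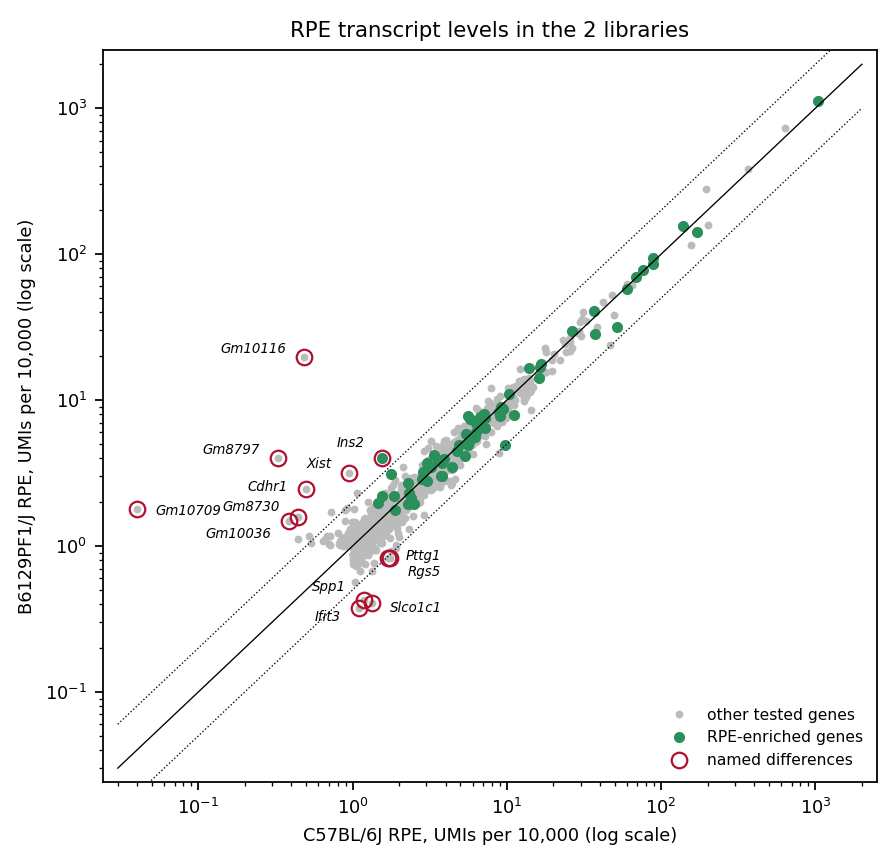
Level of 1317 genes in RPE of C57BL/6J (x axis) and B6129PF1/J (y axis), in UMIs per 10,000 on log axes. Solid and dotted lines mark equality and 2-fold; 57 of the 61 RPE-enriched genes (green) lie within 1.5-fold of equality, with *Ins2* past 2-fold, and circled genes are differences named in the text.

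Some of the genes past 2-fold also differed in the other clusters. *Gm10709*, *Gm10116*, *Gm8797*, *Gm10036* and *Gm8730*, gene models that may share reads with near-identical copies and whose counts are therefore uncertain, were 45.0-fold, 40.3-fold, 12.3-fold, 3.83-fold and 3.57-fold higher in B6129PF1/J RPE, and each was higher in B6129PF1/J in all 12 other clusters. *Pttg1*, with 0.830 and 1.70, was lower in B6129PF1/J RPE and in all 12 other clusters. *Cdhr1*, which encodes a cadherin of photoreceptor discs, had 2.46 (2.29 to 2.65) in B6129PF1/J RPE and 0.498 (0.399 to 0.614) in C57BL/6J RPE, a ratio of 4.95 (3.96 to 6.26). Outside RPE it had 0.0226 and 0.00742. *Cdhr1* lies on chromosome 14 of GRCm38 from 37077857 to 37098347 on the minus strand. *Rgr*, on the same strand from 37034909 to 37048964 with other genes between them, had a ratio of 1.14 (1.12 to 1.16).

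*Ins2*, the insulin gene, was RPE-enriched and had 3.99 (3.77 to 4.22) and 1.56 (1.38 to 1.75), a ratio of 2.56 (2.25 to 2.94), with 0.0183 and 0.00742 outside RPE. A UMI of *Ins2* was found in 65.8% and 37.4% of RPE cells. *Slco1c1*, a thyroxine transporter gene, had 0.407 (0.338 to 0.486) and 1.33 (1.17 to 1.52), so that it was 3.28-fold (2.62 to 4.11) higher in C57BL/6J RPE, and it was nearly absent elsewhere with 0.00917 and 0.0119. No other cluster held enough UMIs of *Cdhr1*, *Ins2* or *Slco1c1*, at least 10, for the libraries to be compared there. *Xist* was 3.34-fold (2.83 to 3.96) higher in B6129PF1/J RPE and 1.24-fold (1.20 to 1.27) higher in the other clusters together. *Ifit3*, an interferon-induced gene, was 2.92-fold (2.30 to 3.71) higher in C57BL/6J RPE and was higher in C57BL/6J in 11 of 12 other clusters. *Spp1*, which encodes osteopontin, with 0.427 and 1.18, and the mural gene *Rgs5*, with 0.824 and 1.73, were lower in B6129PF1/J RPE, and both were far higher outside RPE, with 15.2 and 19.5 and with 27.4 and 28.03. For *Rgs5* the log2 ratio of −1.07 became −0.56 at equal depth and −0.70 as a mean over cells, short of 2-fold. *Sqle*, *Bcat1*, *Ogt* and *Nog* were 2.52-fold, 2.37-fold, 2.26-fold and 2.17-fold higher in B6129PF1/J RPE. *Xist* and *Ogt* also differed between the *Malat1* classes, and cells with 10 or more *Malat1* UMIs made up 28.3% of RPE cells in B6129PF1/J and 14.7% in C57BL/6J. Within these cells *Ogt* had 2.33 and 1.68, short of 2-fold, and *Xist* was found in 39.1% and 32.7% of cells. *Ftl1*, a ferritin light chain gene with related copies, fell just short of the threshold with 23.7 and 46.8.

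The bulk RNAseq of tissue addressed how RPE/choroid changes when ECs lose *Ihh*, and its tables give only the authors' average FPKM of 3 libraries per genotype, without values per mouse. No spread or test can therefore be given. *Ihh* averaged 1.53 FPKM in *Ihh*+/+ tissue and 0.454 FPKM in *Ihh*iΔEC/iΔEC tissue, or 29.7% of control. Of the 61 RPE-enriched genes, 54 had a row and reached 1 FPKM, and 52 of them had a higher average in *Ihh*iΔEC/iΔEC, against 40.7% of all 11411 genes at that level. Their median log2 ratio, computed on FPKM with 0.1 added, was 0.29, while that of all genes was −0.04 with a 5th to 95th percentile of −0.41 to 0.32. The shift was thus small in the median and went the same way in 52 of the 54 genes. Single log2 ratios ran from −0.09 to 0.99. In bulk tissue, a difference in the number of cells of a type and a difference in RNA per cell cannot be told apart.

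Among single genes, *Rpe65* averaged 682 FPKM in *Ihh*+/+ and 914 FPKM in *Ihh*iΔEC/iΔEC (log2 ratio 0.42), *Rgr* 2653 and 3280 FPKM (0.31), *Rdh5* 862 and 1029.9 FPKM (0.26), *Ttr* 4634 and 5454 FPKM (0.24) and *Rlbp1* 606 and 703 FPKM (0.21). Past 1.5-fold stood 4 of the 54 genes, all higher, against 2.02% of all genes higher and 2.41% lower. They were *Ins2* with 8.31 and 16.5 FPKM (0.99), *Upk3bl* (0.84), *Dapl1* (0.67) and the sulfotransferase gene *Sult1c1* (0.63), followed by *Slc6a13* (0.54). At the other end were *Hist1h4i* (−0.09), *Acsl6* (−0.06), *Rom1* (0.05), *Tmem98* (0.07) and *Cox8b* (0.09). *Slc16a8*, *Krt18*, *Rsph10b*, *Krt8*, *Enpp2*, *Basp1* and *Fcor* were not analysed here.

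**Figure D5:**
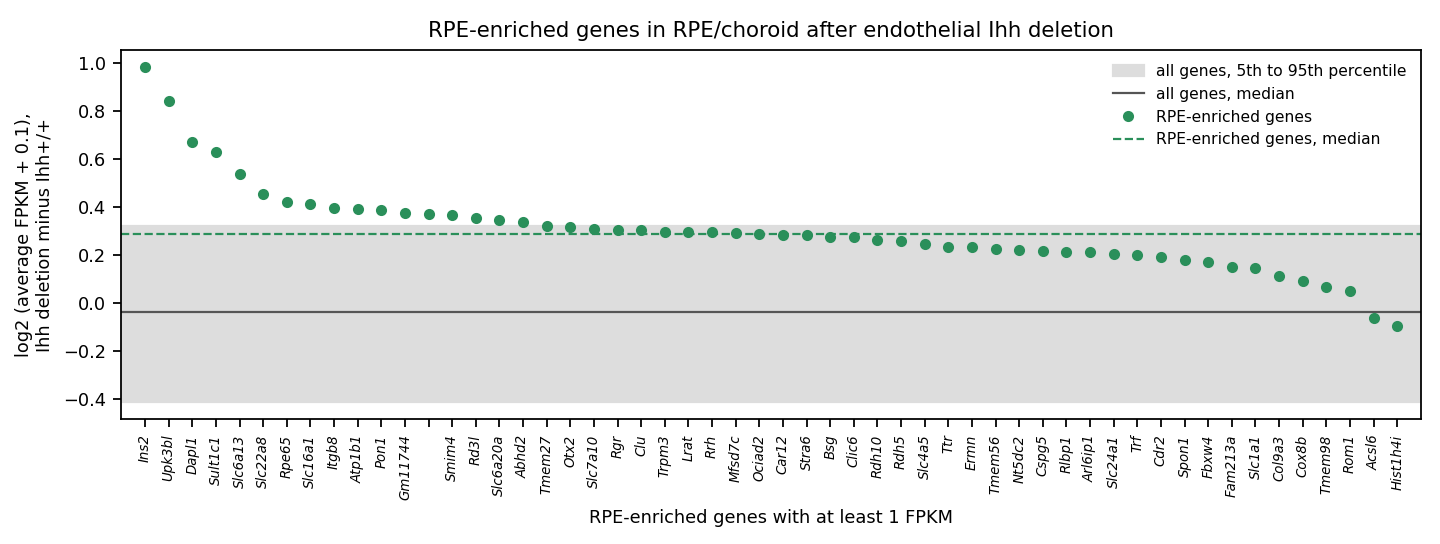
Log2 ratio of the authors' average FPKM (0.1 added), *Ihh*iΔEC/iΔEC to *Ihh*+/+ RPE/choroid, for 54 RPE-enriched genes sorted by ratio (1 drawn without a name), with the median and the 5th to 95th percentile of all 11411 genes. The genes lie around a median of 0.29 and 52 are above 0, while the median of all genes is −0.04.

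Genes enriched by the same rule in the other clusters named next had lower medians, with no test of the difference. No median is given for EC clusters 2 and 3 or for stromal clusters 5, 6 and 8. Most ECs and stromal cells are therefore outside this comparison. The medians were −0.50 for 34 genes of melanocyte cluster 10, −0.38 for 7 genes of stromal cluster 7, −0.14 for 16 genes of smooth muscle cluster 9, −0.08 for 60 genes of hematopoietic cluster 11, 0.10 for 5 genes of EC cluster 4, 0.06 for 10 and −0.01 for 15 genes of Schwann clusters 12 and 13. FPKM is a share of the library, and several other tissue markers differed between the genotypes at the same time. Of 14 photoreceptor genes 13 had a lower average in *Ihh*iΔEC/iΔEC, with a median of −1.25, and all 5 stromal markers were lower, with a median of −0.73. Genes picked after their values were seen included *Krt19* with 0.190 and 5.28 FPKM and *Pax6* with 0.570 and 5.62 FPKM, whereas each had at most 0.0343 UMIs per 10,000 in the RPE cells of the scRNAseq. *Xist* had 6.18 and 13.6 FPKM and *Ddx3y* 6.503 and 3.39 FPKM. The part of these differences in the shift of the RPE genes was not tested.

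RPE genes were also measured in a culture without RPE. In GLI1+ cells, 54 RPE-enriched genes had a median of 0.321 FPKM with DMSO and 0.316 FPKM with SAG, and 24 of them reached 1 FPKM in each, led by *Bsg* with 207 and 205 FPKM. *Rpe65* had 0.496 and 0.806 FPKM, *Rgr* 2.01 and 2.54 FPKM, and *Rlbp1* 0.375 and 0.667 FPKM. Over all genes, 57.7% reached 1 FPKM in each condition.

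The authors' list of 99 genes higher in sorted choroidal ECs than in those of heart, liver, lung or neural retina also held RPE genes. The paper itself compared this list with its scRNAseq and singled out the genes specific to ECs among RPE/choroid cell types. Of the 97 genes with a row in the scRNAseq tables, 19 (19.6%, background 6.33%) were highest in cluster 1 in both libraries and 25 in an EC cluster in both. These 19 included 9 of the 61 RPE-enriched genes, namely *Rpe65*, *Rgr*, *Rdh5*, *Rrh*, *Ins2*, *Itgb8*, *Car12*, *Clic6* and *Ermn*. Choroidal ECs are given as the authors' average alone, which was 183 FPKM for *Ptgds*, 50.9 FPKM for *Rgr*, 21.8 FPKM for *Rpe65* and 18.9 FPKM for *Rdh5*. In the EC cluster with the highest level, *Rpe65* had 0.257 and 0.378 UMIs per 10,000 against 57.9 and 59.9 in RPE.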

How the data were processed

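RPE/choroid cells of 2 scRNAseq libraries, 1 per strain, and bulk RNAseq of 3 libraries per group were analysed, of 26 samples in the series. Per the study's methods, the authors aligned scRNAseq reads to mm10 with Cell Ranger, kept cells with at least 1700 UMIs and clustered both libraries together with Seurat 2.1. The deposited counts are UMI counts per gene and cell, with no normalization, and the deposited mitochondrial values are a fraction of each cell's UMIs. The deposited cells are somewhat fewer than the study states. For bulk samples the authors deposited average FPKM per group (STAR 2.4.0f1 and Cufflinks 2.0.2 per the submitters' processing notes). Columns with the authors' own fold changes and adjusted P values, and tables of cluster averages, were not used.

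UMIs were summed per cluster and library and scaled to 10,000. Intervals are 95% exact Poisson (levels), Clopper-Pearson (shares) or conditional binomial (ratios). Thinning drew 1700 UMIs from every cell, which kept all cells (fewest 1717). Doublets were not called. Bulk ratios used FPKM plus 0.1 over genes with at least 1 FPKM in either group. The planned test on bulk libraries could not be run on averages. The steps were tested on simulated counts. Scripts ran under pandas 2.3.3, scipy 1.17.1, matplotlib 3.10.9 and numpy 2.4.6 (Python 3.11.15).

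The members and the 23 gene lists were chosen with earlier results of these data known, and the Y-linked and nuclear RNA genes, with their alternatives, after the data were seen. Genes were named as follows: the 5 markers, the 25 largest ratios of RPE to the highest other cluster, up to 6 most abundant genes per list plus defining members described as low, the 8 largest strain differences each way, the 15 largest ratios of variance to mean, the 5 highest and 5 lowest RPE-enriched genes in *Ihh*iΔEC/iΔEC tissue and the 10 genes most like *Rpe65*. Other names were chosen after their values were seen. Some items that the rule names are not reported here. Promoters are from RefSeq (GRCm38.p6) and gene positions from GENCODE (GRCm38).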

Additional observations from a re-analysis of the deposited data

How the results depend on the processing

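No paired analysis was possible because the bulk tables hold averages over the 3 libraries of a group and the scRNAseq has 1 library per strain, so the fits with a replicate block and without each replicate were not run. The count of RPE-enriched genes, 61, was 107 at 3-fold, 33 at 10-fold, 102 without clusters 10 and 13 and 28 with every cell thinned to 1700 UMIs, where the 3-UMI floor lies higher, and within 1.5 times of 61 under the other 4 alternatives. The 18 strain differences (12 higher in B6129PF1/J, 6 lower) became 59 (30 and 29) at 1.5-fold and 7 (6 and 1) at a minimum of 2 UMIs per 10,000. *Ttr* outside RPE was 0.335% and 0.266% of its RPE level as a median over cells. Genes with a variance over mean of 1.5 or more were 88 instead of 47 in cells above the median depth. The share of RPE cells without *Malat1* was 22.6% and 36.9% with all UMIs and 13.8% and 24.6% in cells above the median depth, and the share with *Xist* was 12.0% with all UMIs in B6129PF1/J and 20.7% and 9.09% in cells above the median depth, alternatives chosen after seeing the data. The median log2 ratio of RPE-enriched genes in *Ihh*iΔEC/iΔEC tissue stayed between 0.28 and 0.32. No result changed direction. Of the values of single named genes under an alternative, 76 moved by less than their counting error or the set tolerance and 10 by more. A single library per strain, unequal depth and clusters of 16 to 46 cells limit every comparison.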

Other observations

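Of 14 clock and output genes, 3 (*Dbp*, *Per2* and *Ciart*) were highest in cluster 1 in both libraries, against 6.33% of all genes, and the list summed to 9.98 and 8.46 UMIs per 10,000 against 11.6 in stromal cluster 7 of B6129PF1/J and 10.7 in melanocyte cluster 10 of C57BL/6J. *Dbp*, a clock-controlled transcription factor gene, had 6.06 and 4.56 in RPE. The hour at which the eyes were taken is not in the labels. Several genes usually named for RPE were low in RPE cells of the scRNAseq but had clear averages in bulk RPE/choroid of *Ihh*+/+ mice, where all cell types are mixed: *Serpinf1* had 106.5 FPKM, *Mertk* 17.9 FPKM, *Efemp1* 16.3 FPKM and *Mitf* 15.7 FPKM. UMIs per 10,000 are not a level per length, so the 2 scales are given side by side and not compared.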
